A study of Mus musculus with 5 samples.

Results

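The respiratory chain genes of single cells sorted from the mouse ventricular walls and spinal cord were described in 125 of 16347 gene rows. They were chosen by symbol: rows that start with Nduf, Sdha, Sdhb, Sdhc, Sdhd, Uqcr, Atp5 or Cox4 to Cox8, which also takes in the Sdhaf assembly factors, and every row of the mitochondrial genome (Mt.). The rule itself used no measured value, but it was set with earlier results of these data known. The nuclear rows numbered 100 and split into 81 subunits, 12 assembly factors and 7 copies annotated as processed pseudogenes. The mitochondrial rows numbered 25, of 37 genes annotated on that genome: 7 of its 13 protein-coding genes, 2 ribosomal RNAs and 16 of its 22 transfer RNAs. None of these 7 belongs to complex V, and the mitochondrial shares and ratios below cover the 25 rows only.

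The respiratory chain sits in the inner mitochondrial membrane. Complex I takes electrons from NADH and complex II from succinate, complex III passes them to cytochrome c, and complex IV hands them to oxygen. The resulting proton gradient drives ATP synthase, complex V. Most subunits are encoded in the nucleus, while the mitochondrial genome encodes core subunits of complexes I, III, IV and V together with the ribosomal and transfer RNAs needed to translate them. Several complex IV subunits exist as paired forms from different genes, among them a heart and muscle form and a widely expressed form. Ependymal cells line the ventricles and the central canal with motile cilia, and beating cilia consume ATP.

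All cells came from 3-month-old mice, with 1 sample per group. In the line labelled FoxJ1CreERT2 R26TdT, in which the Foxj1 promoter of ciliated cells drives an inducible Cre and a red fluorescent reporter, 10 animals (5 females and 5 males) gave ependymal tissue from 4 places: spinal cord, midbrain aqueduct, lateral ventricles and the third ventricle. In the line labelled Nkx2-2Cre R26TrapC, with Cre under Nkx2-2, a gene of ventral progenitors and young oligodendrocytes, 7 female animals gave midbrain tissue. All samples carried the tissue label adult mouse brain, the spinal cord included. Cells were sorted by fluorescence into plates and sequenced by Smart-seq2, which reads whole transcripts without molecular identifiers and without strand. Animals were pooled within a sample and the labels do not say which animal a well came from, so each group was 1 sample, no test between conditions was possible, and differences are given as fold changes with their spread between blocks of cells.

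Reads were summed over a class of cells and expressed in CPM, the count in every 1000000 reads of the class. The lateral ventricle gave 240 cells, the third ventricle 245 and the spinal cord 114. The midbrain cells of both lines were divided in order by 3 genes that are not respiratory: at least 1000 CPM of Ccdc153, a cilium gene, then at least 500 CPM of Sspo, the secreted product of the subcommissural organ, then at least 500 CPM of Mog, a myelin gene. This gave 317 Ccdc153-high, 196 Sspo-high and 34 other cells in the Foxj1 line midbrain, and 19 Ccdc153-high, 12 Sspo-high, 243 Mog-high and 53 other cells in the Nkx2-2 line. The classes held 14323509 to 352751349 reads, and the shallowest cell 108417. Median detected genes per cell were lowest in the spinal cord at 3979.5, against 4866 in Ccdc153-high midbrain cells, 5341 in the third ventricle and 5435.5 in the lateral ventricle.

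Marker levels matched most labels. The 6 ependymal markers summed to 12102 CPM in the lateral ventricle, 11975 in Ccdc153-high midbrain cells, 11380 in the third ventricle and 6432 in spinal cord cells, against 31.8 in Mog-high cells. Oligodendrocyte markers summed to 99561 CPM in Mog-high cells and to 6066 in the Ccdc153-high cells of the same line. The columns of the third ventricle are headed Tanycytes, yet the 3 tanycyte markers in the table summed to 9.78 CPM there, against 27.7 for spinal cord and 14.8 for lateral ventricle cells, so the cells are named here by their place only.

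Per kilobase of annotated exon, the level of the most abundant subunit in Ccdc153-high midbrain cells differed by complex. In complex I, Ndufa2 reached 583 CPM per kb against a median of 100, and Ndufab1, the acyl carrier protein, was lowest at 7.78. In complex II the membrane anchor Sdhd was highest at 139 CPM per kb, the other anchor Sdhc lowest at 84.9, and the median of the 4 subunits was 107. In complex III, Uqcr10 reached 333 CPM per kb, Uqcrb 46.3 and the median was 127. In complex IV the widely expressed Cox8a reached 717 CPM per kb, while its paired form Cox8b was at 0.119 and the median was 53.8. In complex V the catalytic-core subunit Atp5a1 reached 306 CPM per kb, Atp5l was lowest at 1.4 and the median was 124, over the 14 of 16 subunits with a length. Levels per kilobase thus spread widely in complexes I, IV and V. The lengths were annotated exon lengths per gene, and the transcripts in the cells may be shorter. They were 6883 bases for Ndufab1 and 6443 for Atp5l, against 572 for Ndufa2 and 3135 for Atp5a1. The part of these lengths in the spread was not tested.

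Nuclear respiratory genes are known for start regions that carry sites for NRF1, for ETS factors such as GABP, and for YY1. RefSeq start regions (build GRCm38.p6, 250 bases before to 50 bases after the annotated start) were matched for 67 of the 81 subunits. The NRF1 core CGCATGCG stood in 8 of 67 (11.9%), against 2.07% of 27025 genes and 4.30% of 9789 genes of at least 10 CPM. The YY1 word AAGATGGCG stood in 7 (10.4%), against 1.64% and 3.51%, and the ETS word CCGGAAGT in 5 (7.46%), against 4.31% and 8.67%. Both strands were searched, no word contains another, and at least 1 of the 3 stood in 18 subunits (26.9%) against 7.58% of all genes and 15.5% of expressed ones. A matched word is a description of the letters and no evidence of binding. Windows of 4 subunits are shown to make the shared word visible, 5′ to 3′ on the strand of the gene with the NRF1 core in capitals: Atp5j at chr16:84835100-84835139 (minus strand), Atp5k at chr5:108434425-108434464 (minus), Cox6a1 at chr5:115349096-115349135 (minus) and Ndufa11 at chr17:56717687-56717726 (plus).
Atp5j: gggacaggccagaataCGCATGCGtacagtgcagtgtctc
Atp5k: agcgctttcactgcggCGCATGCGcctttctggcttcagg
Cox6a1: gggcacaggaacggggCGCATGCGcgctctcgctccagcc
Ndufa11: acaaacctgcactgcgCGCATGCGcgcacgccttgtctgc

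Across the 4 regions the nuclear subunits stayed close together. Of 77 subunits of at least 10 CPM in any of the 4 regions, 72 (93.5%) lay within a 1.5-fold range from the lowest to the highest region. Of all 10823 genes passing the same minimum, 4217 (39.0%) did. The median range was 1.23-fold for subunits and 1.64-fold for all genes. Subunits and all genes were not matched for level, and the part of level in this contrast was not tested. The lateral ventricle held the highest level for 50 of the 77, the spinal cord for 18, the third ventricle for 8 and the midbrain for 1. Of all 10823 genes these counts were 2006, 3915, 2660 and 2242 in that order. Blocks overlapped, with nuclear subunits at 1.62 to 2.21% of reads in the lateral ventricle. In the spinal cord they took 1.68 to 1.79%, in the third ventricle 1.45 to 1.84% and in the midbrain 1.48 to 2.09%. The 5 subunits outside the range were Cox7a1 (4.16-fold), Cox6b2 (2.3-fold), Cox7c (1.9-fold), Ndufab1 (1.58-fold) and Ndufc2 (1.52-fold), so 3 of the 5 belong to complex IV.

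Each region was then set against the mean level of the other 3, so the comparisons share samples. In the lateral ventricle 1 of 77 subunits was at least 1.5-fold higher and 0 lower, beside a background of 6.08% higher and 10.8% lower over all genes compared, and the median log2 ratio was 0.15 (all genes -0.04). In the third ventricle 0 of 76 were higher or lower (background 10.2% and 8.99%), with a median of -0.09 (all genes -0.01). In the midbrain 0 were higher and 2 of 76 lower (background 6.16% and 8.57%), with a median of -0.08. In the spinal cord 1 was higher and 2 of 76 lower (background 17.7% and 18.5%), with a median of 0.02. With the authors' normalized values the last 2 medians crossed 0, to 0.00837 and -0.0256, and the other 2 kept their sign at 0.15 and -0.16. Complex by complex, the medians ran from 0.11 to 0.20 in the lateral ventricle, from -0.16 to -0.04 in the third ventricle, from -0.11 to -0.03 in the midbrain and from -0.03 to 0.09 in the spinal cord. No complex had a regional median near 1.5-fold.

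**Figure D1:**
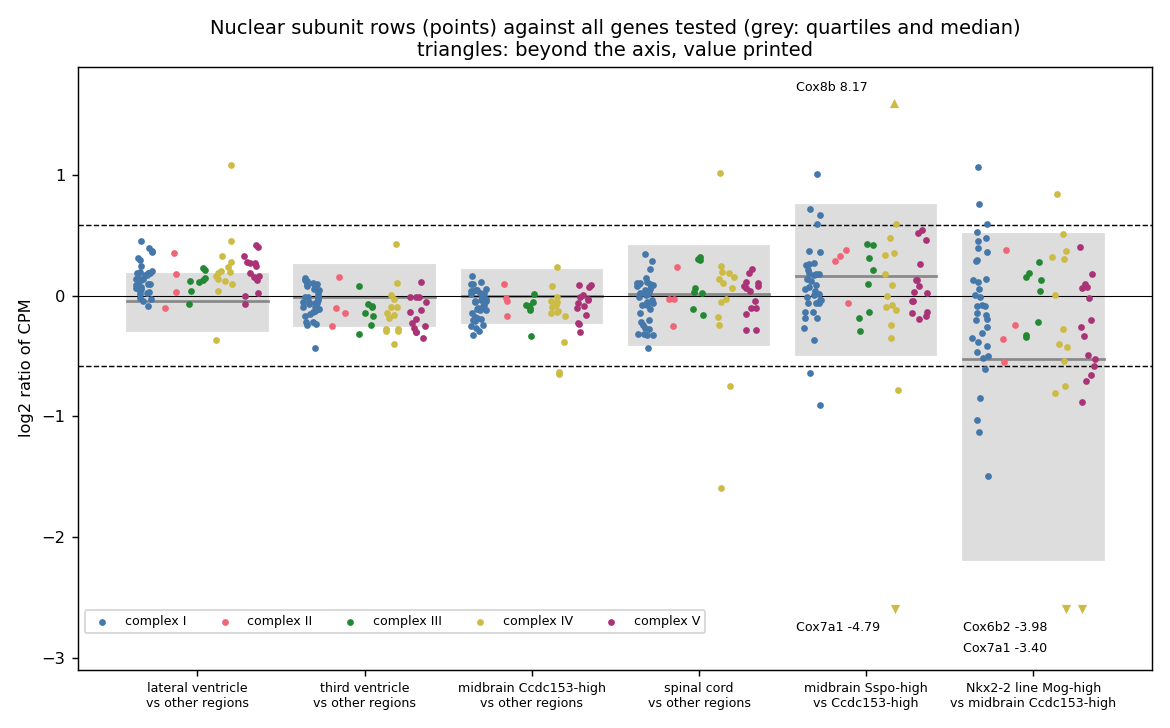
Log2 ratio of each nuclear subunit (points, coloured by complex) in 6 comparisons, with the quartiles and median of all genes compared in grey and 1.5-fold as dashed lines. Triangles mark 4 values beyond the axis, printed beside them: Cox8b 8.17 and Cox7a1 -4.79 in Sspo-high cells, Cox6b2 -3.98 and Cox7a1 -3.40 in Mog-high cells. In the 4 regions nearly all subunits lie between the dashed lines.

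The catalytic and core subunits show how close the regions were. Sdha, the flavoprotein of complex II, was at 594 CPM in the spinal cord, 514 in Ccdc153-high midbrain cells, 499.9 in the lateral ventricle and 499.6 in the third ventricle, with blocks that overlapped. Its iron-sulfur partner Sdhb lay between 202 and 238 CPM. Uqcrc1, a core protein of complex III, lay between 385 and 447 CPM, and Uqcrfs1, the Rieske iron-sulfur protein, between 166 and 211. Cox4i1, the main form of subunit 4 of complex IV, lay between 786 and 1058 CPM, and Atp5b, the catalytic beta subunit of ATP synthase, between 1049 and 1415. None of these 6 spanned 1.5-fold.

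Subunits at the ends of the range in the third ventricle, the lateral ventricle and the spinal cord are given here. In the third ventricle the lowest ratios were those of Ndufc2, a membrane-arm subunit of complex I, at 168 CPM against 227 elsewhere (log2 -0.43), and of Cox8a at 343 against 452 (-0.40). In the lateral ventricle Ndufab1 stood at 73.7 CPM against 53.8 (0.45) and Cox7c, a small membrane subunit, at 19.8 against 14.4 (0.45). In the spinal cord Cox7c stood at 10.4 CPM against 17.6 (-0.75), past 1.5-fold, but without the first of its 2 blocks the ratio was -0.31, so the call rests on that block. Ndufs1, the largest core subunit of complex I, had the second highest ratio there at 0.35, under 1.5-fold.

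The largest regional differences were in paired forms of complex IV subunits. Cox7a1, the heart and muscle form of subunit 7a, was at 29.8 CPM in the lateral ventricle (19.3 to 34.9 over blocks of 96 consecutive wells), 22.3 in the third ventricle (13.6 to 29.0), 12.7 in Ccdc153-high midbrain cells (9.71 to 22.2) and 7.16 in the spinal cord (6.88 to 7.67). Both spinal cord blocks lay below every block of the other regions, while those of the other 3 regions overlapped one another. Against the other 3 regions this was a log2 ratio of 1.08 for the lateral ventricle and -1.59 for the spinal cord. Per kilobase, Cox7a1 made up 19.4% of the sum of Cox7a1 and its widely expressed partner Cox7a2 in the lateral ventricle, 18.3% around the third ventricle, 10.6% in Ccdc153-high midbrain cells and 5.21% in the spinal cord.

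A summed level does not tell fewer cells with the transcript from less RNA per cell, so the share of cells with a read was counted. Cox7a1 had a read in 83 of 240 lateral ventricle cells (34.6%), 74 cells of the third ventricle (30.2%), 49 Ccdc153-high midbrain cells (15.5%) and 12 spinal cord cells (10.5%). Thinned to 100000 reads per cell the shares were 29.2%, 26.9%, 12.9% and 8.77%, and 3.29% in Mog-high cells. The order of the regions was the same for levels and for both shares. Acta2, a gene of smooth muscle and other mural cells, had the same order, with 728 CPM in the lateral ventricle, 441 for the third ventricle, 202 in Ccdc153-high midbrain cells and 71.7 in the spinal cord. The contractile genes Myl9 and Tagln did not keep that order. Myl9 was at 567 CPM in the third ventricle and 458 in the lateral ventricle. Tagln was at 26.1 CPM in the spinal cord and 5.51 in 316 of the Ccdc153-high midbrain cells. Of the 3 mural markers 2 were in the table, and Pdgfrb was at most 1.77 CPM in the 4 regions. In the lateral ventricle Acta2 was at 736 CPM in the 72 cells with at least 10 CPM of Cox7a1 and at 724 in the other 168. In Ccdc153-high midbrain cells it was at 205 CPM in 43 such cells and 202 in the other 274. In the third ventricle it was at 514 CPM in 66 such cells and 411 in the other 179. In the spinal cord it was at 269 CPM in 11 such cells and 42.7 in the other 103. The part of mural RNA in the Cox7a1 values was not tested further.

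Cox6b2, known as the testis form of subunit 6b, had another order. It was highest in the spinal cord at 93.2 CPM (blocks 64.0 to 110), ahead of the third ventricle at 49.9, the lateral ventricle at 47.6 and Ccdc153-high midbrain cells at 40.5 (24.9 to 59.9). Against the other 3 regions its log2 ratio was 1.02 in the spinal cord and -0.65 in the midbrain. Without the first spinal cord block these were 0.48 and -0.41, both within 1.5-fold. In the midbrain 3 other blocks also ended the Cox6b2 call when left out, and 3 of 15 blocks ended that of Cox7a1, which ranged from -0.80 to -0.53. Per kilobase Cox6b2 made up 11.7% of the sum of Cox6b1 and Cox6b2 in the spinal cord and 6.31 to 8.38% in the other regions. The share of cells with a Cox6b2 read was 47.4% in the spinal cord, 40.8% in the third ventricle, 37.5% in the lateral ventricle and 30.0% in Ccdc153-high midbrain cells.

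Other paired forms were rare. Ndufa4l2, a paralog of the complex IV subunit Ndufa4, reached 7.42 CPM in the spinal cord (9 cells) and 3.67 in the third ventricle (13 cells), and 0.420 or less elsewhere. Cox4i2, the form of subunit 4 linked to low oxygen, was at 2.94 CPM in the third ventricle, 2.69 in lateral ventricle cells, 0.866 in the spinal cord and 0.707 in Ccdc153-high midbrain cells. Both stayed under the 10 CPM minimum in every class, as did Atp5k.ps2, Mt.tn and Mt.th. Atp5g1, which encodes the c subunit of ATP synthase as Atp5g3 does, made up 4.06 to 4.94% of their summed reads in the 4 regions. Per kilobase of annotated exon, with 4912 bases for Atp5g1 and 2181 for Atp5g3, its share there was 1.84 to 2.26%. In the Nkx2-2 line its per-kilobase share was 5.37% in Ccdc153-high cells and 4.63% in Mog-high cells. This share was lowest in the Sspo-high cells of both lines, at 1.22% in the Foxj1 line and 1.04% in the Nkx2-2 line. Cox6a2, Cox7b2, Cox8c and Atp5g2 were not analysed here.

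**Figure D2:**
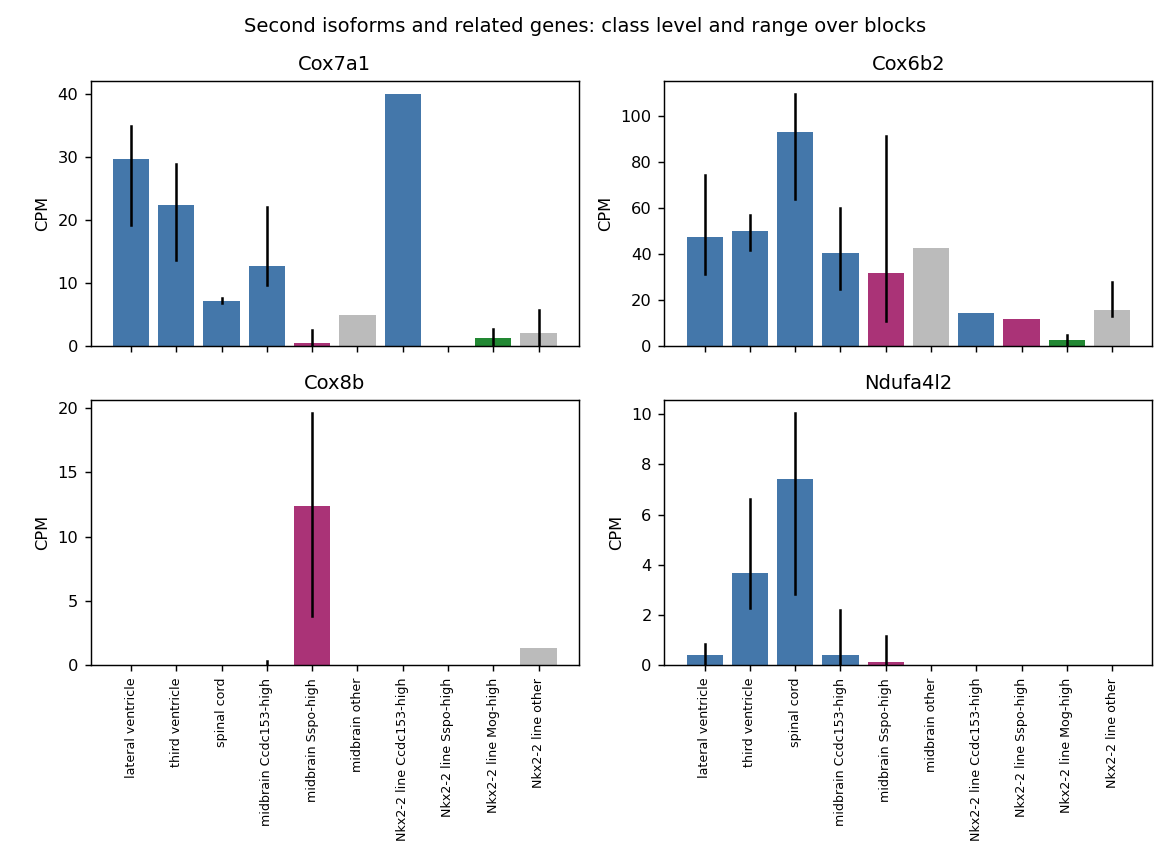
Level (CPM) of 4 alternative subunit forms, Cox7a1, Cox6b2, Cox8b and Ndufa4l2, in each class of cells (bars), with lines for the range over blocks of at least 10 cells. Cox7a1 is tallest among the large classes in the lateral ventricle at 29.8, Cox6b2 in the spinal cord at 93.2, and Cox8b in Sspo-high midbrain cells at 12.4.

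Assembly factors, which build complexes I and II without staying in them, were past 1.5-fold for 4 of 12 in the spinal cord, 2 in the lateral ventricle, 1 in the midbrain and 0 in the third ventricle. In the spinal cord 1 was higher and 3 lower, beside the background of 17.7% and 18.5%, so the 4 calls are near the share of all genes. Leaving out 1 block ended the calls of Ndufaf6 in the lateral ventricle and the midbrain and of Sdhaf4 and Sdhaf3 in the spinal cord. In the lateral ventricle Ndufaf5, a complex I factor, was at 7.09 CPM against 17.3 elsewhere (log2 -1.29) and Ndufaf6 at 26 against 16.5 (0.65). In the spinal cord the complex II assembly factor Sdhaf4 was at 77.2 CPM against 122 (-0.66) and the complex I factor Ndufaf7 at 56.9 against 97.8 (-0.78), Sdhaf3 was at 6.22 against 10.8, and Ndufaf5 at 20.9 against 12.8 (0.71). In the midbrain Ndufaf6 was at 13.7 against 20.6 (-0.59).

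The mitochondrial rows set the spinal cord apart from the other regions. They took 9.17% of all its reads, with 7.25 and 12.5% in its 2 blocks, against 5.45% in Ccdc153-high midbrain cells (4.37 to 7.00), 5.44% in the lateral ventricle (blocks 5.09 to 5.67) and 5.08% in the third ventricle (4.72 to 5.46). Both spinal cord blocks were above every block of the other regions. Nuclear subunits took 1.75%, 1.69%, 1.88% and 1.65% of reads in the same order. The ratio of mitochondrial to nuclear subunit reads was therefore 5.24 in the spinal cord, against 3.22 in Ccdc153-high midbrain cells, 3.07 in the third ventricle and 2.89 in lateral ventricle cells. Restricted to the 7 mitochondrial protein-coding rows the ratio was 2.49 in the spinal cord and 1.5 to 1.62 in the other 3.

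Many spinal cord cells carried a large mitochondrial share, and its median cell was also above those of the other regions. Of 114 cells, 37 (32.5%) were above 10% and the highest reached 46.2%. In the other 3 regions 1.22 to 4.10% of cells were above 10%. The median spinal cord cell stood at 8.01%, against 5.32% for the lateral ventricle, 5.1% for the third ventricle and 5.07% for Ccdc153-high midbrain cells. Without the 5 cells above 20%, which had a median of 3015 detected genes, the spinal cord stood at 8.73%. With only its cells of at least 1000 CPM of Ccdc153 (99 of 114) it stood at 9.10%. A high mitochondrial share and few detected genes are commonly read as signs of damaged cells. The spinal cord had both the highest share and the fewest genes per cell of the 4 regions, and the part of damaged cells in its share was not tested.

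**Figure D3:**
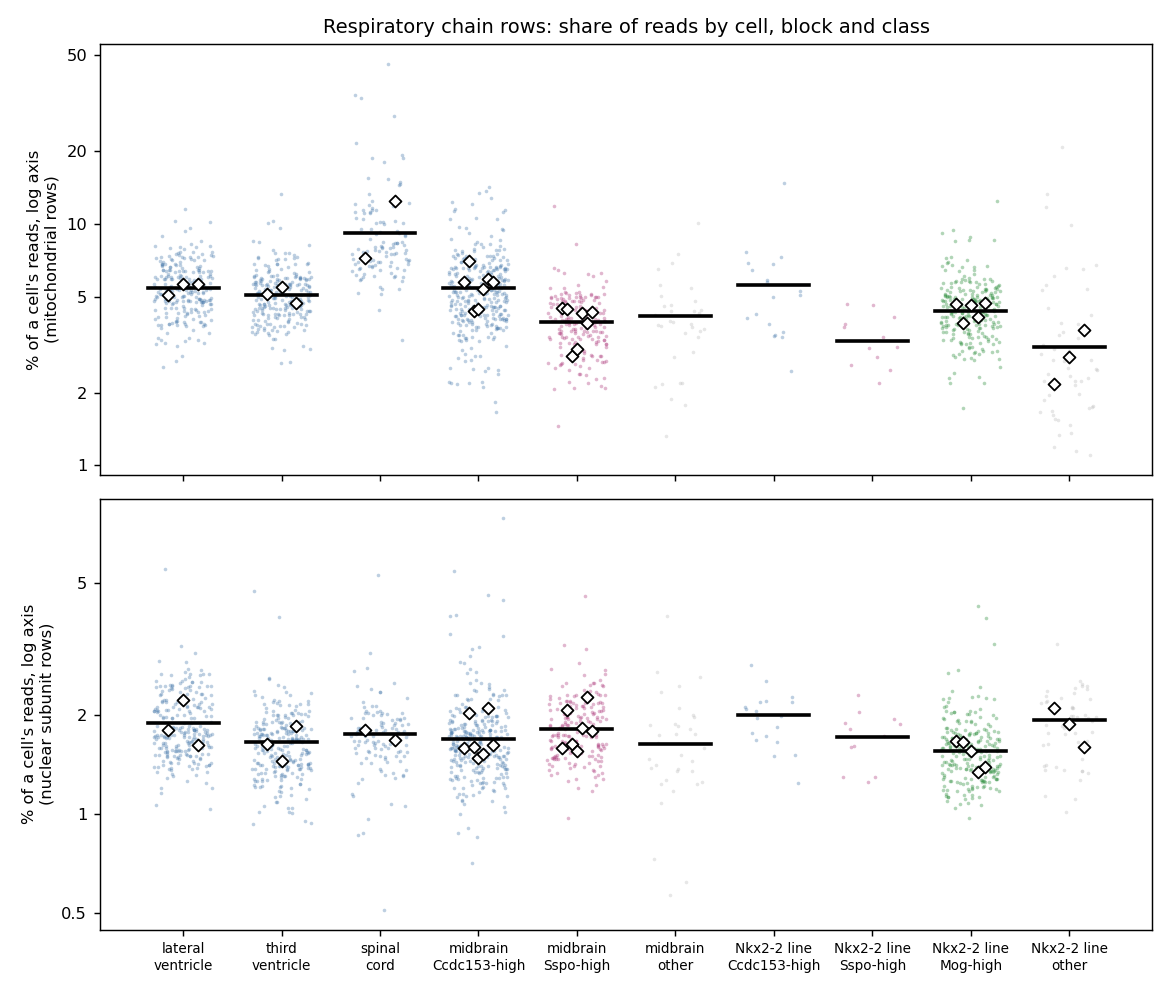
Percent of each cell's reads in the mitochondrial rows (top) and in the 81 nuclear subunit rows (bottom), on logarithmic axes, for 10 classes; lines give the class value from summed reads and diamonds the blocks. In the top panel the spinal cord lies highest at 9.17% and Sspo-high midbrain cells low at 3.94%, while in the bottom panel the class values lie between 1.55 and 1.99%.

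Nearly every mitochondrial row was higher in the spinal cord. Of 23 rows compared, 22 were at least 1.5-fold higher and 0 lower, beside a background of 17.7% and 18.5% of all genes, with a median log2 ratio of 0.88. Of the 22 calls 15 held whichever block was left out. Mt.co1, a catalytic subunit of complex IV, was the exception at 8563 CPM against 6432 (0.41). Mt.cytb, the mitochondrial subunit of complex III, was at 18281 CPM against 12211 in the lateral ventricle, 10944 in Ccdc153-high midbrain cells and 10808 in the third ventricle. Its spinal cord blocks (18021 to 18431) lay above all other blocks (6935 to 15314). Mt.rnr2, the large ribosomal RNA, was at 44007 CPM against 23659 (0.90), with blocks from 26923 to 73696 that overlapped those of the other regions (15276 to 31977). Leaving out either spinal cord block moved its log2 ratio to 0.19 or 1.64, so the size for this row rests on 1 block, while that of Mt.cytb stayed at 0.62 to 0.80. Since the rows are cut from long shared precursor transcripts, they are not independent of each other.

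The mitochondrial complex I rows had the same order of regions for all 5 genes with a row. Mt.nd2 was at 2042 CPM in the spinal cord, 1234 in the lateral ventricle, 954 in Ccdc153-high midbrain cells and 802 in the third ventricle. Mt.nd4 was at 4014, 2885, 2391 and 2173 CPM and Mt.nd5 at 4231, 2640, 2376 and 2135 in that order, and Mt.nd6, the subunit encoded on the opposite strand, at 773, 576, 462 and 384. Mt.nd1 followed with 5612, 3947, 2984 and 2670 CPM. Each of these 5 rows was thus highest in the spinal cord and second in the lateral ventricle. The transfer RNA rows held far fewer reads, from 2.38 CPM for Mt.th, the histidine one, to 130 CPM for Mt.tq, the glutamine one, in the spinal cord.

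In the other regions the protein-coding mitochondrial rows were mostly within 1.5-fold. In the lateral ventricle and in the midbrain 0 of 7 passed in either direction, and in the third ventricle Mt.nd1, Mt.nd2 and Mt.nd6, all complex I subunits, were lower. The transfer RNA rows shifted more, with 13 of 14 lower in the third ventricle, 12 of 14 lower in the midbrain, 5 higher and 1 lower in the lateral ventricle, and 14 of 14 higher in the spinal cord. Of the 6 calls in the lateral ventricle 2 held whichever block was left out, of 16 in the third ventricle 14, and of 12 in the midbrain 10. Because the reference of each region includes the spinal cord, the lower calls of the third ventricle and the midbrain share its high values. All transfer RNA rows together made up 0.444 to 0.929% of mitochondrial reads over the classes. Whether these reads come from mature transfer RNAs or from longer precursors was not determined.

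**Figure D4:**
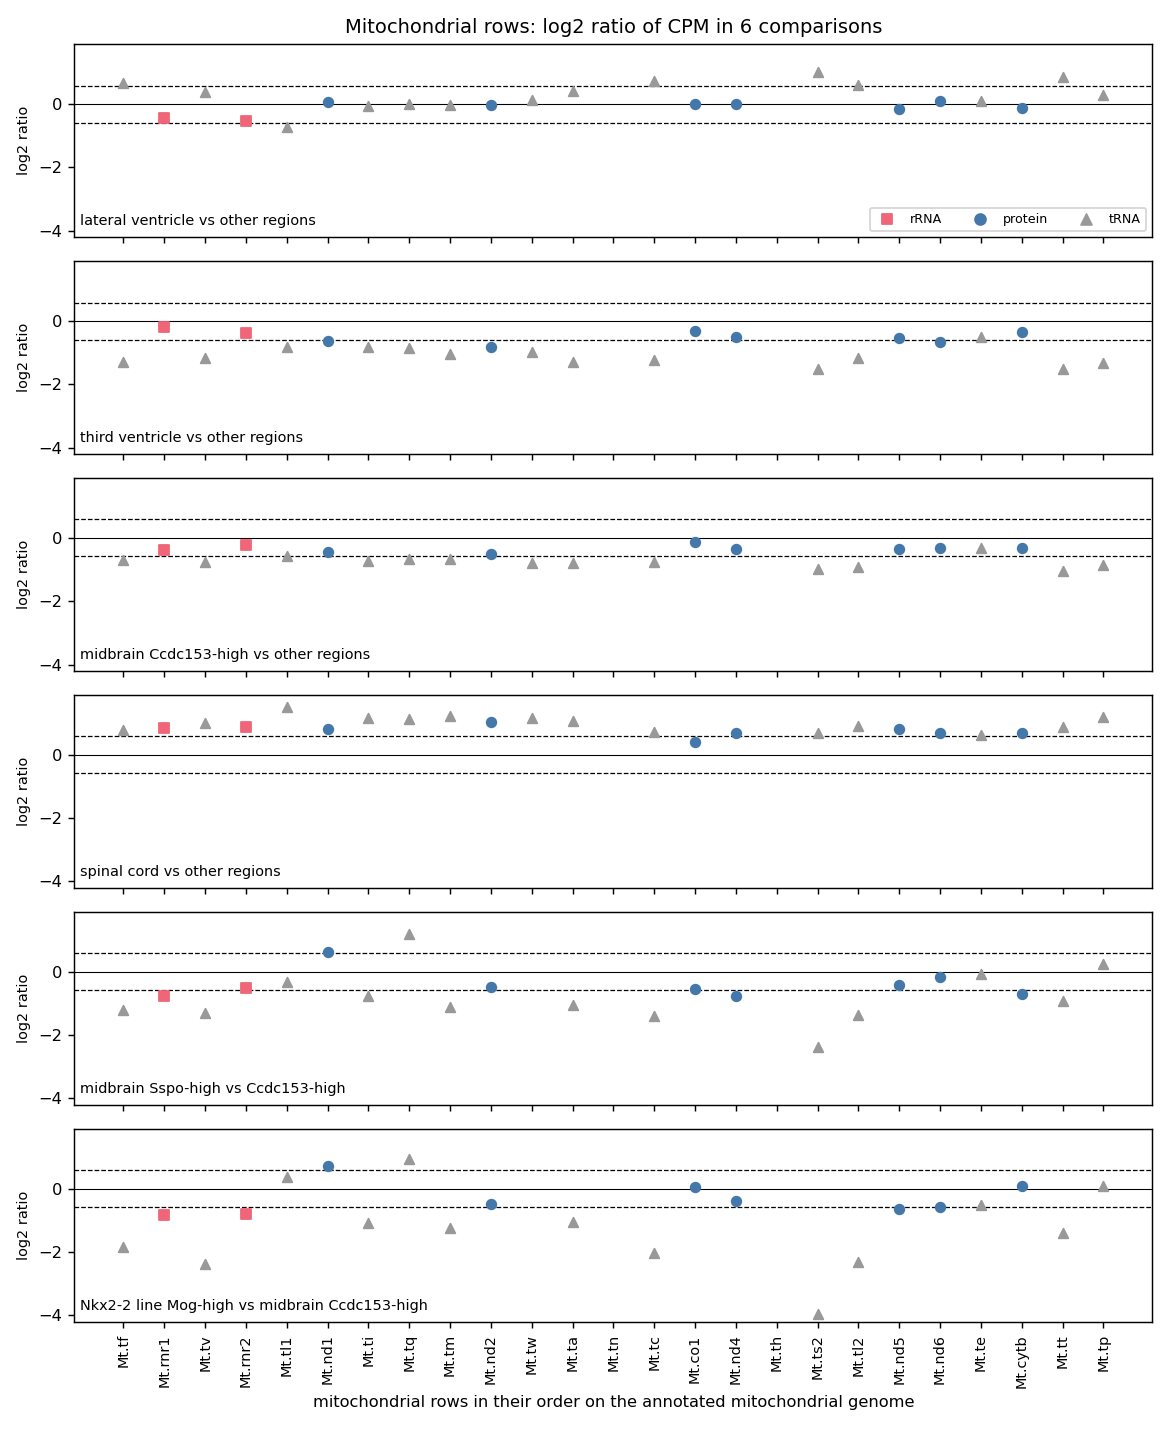
Log2 ratio of each mitochondrial row, in genome order, in 6 comparisons, with separate markers for ribosomal RNA, protein-coding and transfer RNA rows and 1.5-fold as dashed lines. In the spinal cord all rows lie above 0 and 22 of 23 pass 1.5-fold; in Sspo-high and Mog-high cells Mt.nd1 and Mt.tq lie above 0 among mostly negative rows.

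The Sspo-high midbrain cells were compared with the Ccdc153-high cells of the same sample. Subcommissural organ markers summed to 11723 CPM in the former and 544 in the latter, and ependymal markers to 2219 and 11975. Of the 317 Ccdc153-high cells 16 also had at least 500 CPM of Sspo, and the order of the rule kept them in that class. Of 78 subunits 6 were at least 1.5-fold higher and 4 lower, beside a background of 31.1% higher and 22.2% lower over all genes. The median log2 ratio of subunits was 0.08 (all genes 0.16). With the authors' normalized values the median was -0.16 (all genes -0.01), with 2 higher and 5 lower of 77, beside a background of 24.3% and 26.9% on that scale. The direction of the median thus turned with the scaling, and on both scales fewer subunits passed than the background share. Complex I held 4 of the higher and 2 of the lower subunits, complex IV the other 2 and 2, and complexes II, III and V none.

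Ndufc2 had the largest ratio of the abundant subunits. It was at 437 CPM in Sspo-high cells (blocks 270 to 673) against 217 in Ccdc153-high cells (162 to 315), a log2 ratio of 1.01, and every other large class lay below, from 163 in Mog-high to 255 in lateral ventricle cells. Ndufa5 was at 89.7 against 54.4 (0.72) and Ndufa1 at 124 against 77.8 (0.67), both accessory subunits of complex I, as was Ndufb4 at 34.8 against 22.9 (0.60). Cox7a2l, a relative of subunit 7a that links complexes III and IV, was at 120 against 79.5 (0.60). Blocks overlapped for all 5. The lower ones were Ndufb5 of the complex I membrane arm at 210 CPM against 394 (-0.91), Ndufa9 at 93.5 against 146 (-0.64), with overlapping blocks, and Ndufa4 at 88.3 (71.0 to 107) against 151 (110 to 234, log2 -0.78), a complex IV subunit whose blocks did not overlap. In the other regions Ndufb5 lay between 327 and 397 CPM and Ndufa4 between 173 and 215.

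The titles divide the midbrain wells between 2 sequencing projects, and cells were assigned to them by taking the cell numbers as the order of wells, which no label states cell by cell. Under that split Ndufc2 had log2 ratios of 1.06 in the first and 0.89 in the second, Ndufb5 of -0.90 and -0.94, and Ndufa4 of -0.68 and -1.01, the same direction in both. In the Nkx2-2 line, where 12 Sspo-high and 19 Ccdc153-high cells could be set side by side, Ndufa5 had 1.9, Ndufb4 1.10, Ndufb5 -0.77 and Ndufa9 -0.96, past 1.5-fold in the direction of the larger sample. Ndufc2 (0.56), Ndufa1 (0.54) and Ndufa4 (-0.38) were within 1.5-fold there, and Cox7a2l went the other way at 68.3 against 73.7 CPM (-0.11). In the authors' normalized values the ratios of the larger sample were 0.69 for Ndufc2, 0.25 for Ndufa5, 0.34 for Ndufa1, -1.0 for Ndufb5, -0.95 for Ndufa4 and -0.87 for Ndufa9. Ndufb4 had 0.34 and Cox7a2l 0.42. Ndufa5, Ndufa1, Ndufb4 and Cox7a2l thus kept their sign but not the 1.5-fold call under that scaling, while Ndufc2 and Cox8b kept theirs. On the CPM scale, leaving out 1 block ended the calls of Ndufb4, Cox7a2l and Ndufa9.

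The largest ratios were in paired forms of complex IV. Cox7a1 was at 0.459 CPM in Sspo-high cells against 12.7 (log2 -4.79), in 5 cells with a read (2.55%) against 49 (15.5%), with blocks that did not overlap. Without the second block of Sspo-high cells the ratio was -8.43, so its size rests on that block. In the Nkx2-2 line it had 0 reads in Sspo-high cells and 40.1 CPM in Ccdc153-high cells. Cox8b, the heart and muscle form of subunit 8, showed the opposite. It had 2029 reads in Sspo-high cells (12.4 CPM, blocks 3.79 to 19.6) and 11 reads in 2 of 317 Ccdc153-high cells (0.0430 CPM), a 289-fold ratio of levels. It had 0 reads in Mog-high cells and in all 3 regions outside the midbrain.

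A minority of the Sspo-high cells held the Cox8b reads. A read was found in 30 of 196 (15.3%, and 12.8% after thinning, exact 95% interval 8.43 to 18.3%), 25 cells reached 10 CPM, the highest cell stood at 334 CPM, and 1 cell gave 22.8% of the reads. Per kilobase Cox8b made up 3.33% of the sum of Cox8a and Cox8b in the class. The 25 cells with at least 10 CPM of Cox8b had 11404 CPM of Sspo and the other 171 had 9742. With the class limits divided by 2 (158 Sspo-high and 361 Ccdc153-high cells) the log2 ratio was 4.27 in place of 8.17, so its size depends on which cells are assigned to the Ccdc153-high class. In the Nkx2-2 line 0 of 12 Sspo-high cells had a read, which allows a share of up to 26.5% of cells with a read, and 59 reads came from 1 cell outside its 3 named classes.

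The RefSeq start regions of the 2 subunit 8 genes differ in base composition and are shown for that contrast. The 250 bases before the start of Cox8b (chr7:140900447-140900696, minus strand, GRCm38.p6; gene at chromosome 7, 140898945 to 140900446) held 1 CG pair and 47.2% G and C. Those before Cox8a (chr19:7217617-7217866, minus strand) held 11 CG pairs and 52.8% G and C. Both run 5′ to 3′ on the strand of the gene with CG pairs in capitals.
Cox8b: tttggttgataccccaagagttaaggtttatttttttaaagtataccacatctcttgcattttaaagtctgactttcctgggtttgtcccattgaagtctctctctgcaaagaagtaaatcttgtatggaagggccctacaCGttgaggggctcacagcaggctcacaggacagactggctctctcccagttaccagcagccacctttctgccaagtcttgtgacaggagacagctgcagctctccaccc
Cox8a: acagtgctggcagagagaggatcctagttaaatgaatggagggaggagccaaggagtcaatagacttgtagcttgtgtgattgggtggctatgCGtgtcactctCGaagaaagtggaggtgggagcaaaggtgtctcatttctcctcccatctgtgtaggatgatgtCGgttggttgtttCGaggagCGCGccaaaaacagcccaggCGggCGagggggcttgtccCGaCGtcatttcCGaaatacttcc

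Of the 12 assembly factors, all compared, 2 were higher and 1 lower in Sspo-high cells, under the background of 31.1% and 22.2%. In the authors' normalized values 1 was higher and 6 lower, beside a background of 24.3% and 26.9%, with a median log2 ratio of -0.47. On that scale the lower count was above the background share, so the reading turned with the scaling. Sdhaf2, which helps attach the flavin of complex II, was at 124 CPM against 73.1 (log2 0.76) and Sdhaf3 at 16.1 against 7.17 (1.17). Ndufaf3, a complex I factor, was at 102 against 163 (-0.67). In the Nkx2-2 line, on 12 and 19 cells, Sdhaf2 kept its direction at 134 against 56.3 CPM (1.25). Sdhaf3 went the other way there at 5.66 against 14.1 (-1.32), with reads in 2 cells of each class, as did Ndufaf3 at 199 against 162 (0.30). In the larger sample Sdhaf3 had a read in 32 of 196 Sspo-high and 26 of 317 Ccdc153-high cells.

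Mitochondrial rows took 3.94% of reads in Sspo-high cells (blocks 2.84 to 4.48) against 5.45% in Ccdc153-high cells. The Sspo-high value was the lower in each of the 7 midbrain blocks, for example 4.48 against 5.78% and 4.43 against 7.00%. In the cells assigned to the first sequencing project the shares were 3.83 and 5.29%, and in the second 4.19 and 5.83%. Nuclear subunits took 1.81 and 1.69% of reads, so the ratio of mitochondrial to nuclear subunit reads was 2.18 in Sspo-high and 3.22 in Ccdc153-high cells. Of 22 mitochondrial rows 12 were lower and 2 higher, beside the background of 22.2% lower and 31.1% higher, with a median log2 ratio of -0.74. On the normalized scale 15 of 21 were lower and 1 higher. Mt.cytb stood at 6662 CPM against 10944 and Mt.nd4 of complex I at 1395 against 2391 (-0.78).

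Mt.nd1, the first complex I gene of the mitochondrial genome, went the other way, at 4594 CPM against 2984 (0.62). As a share of mitochondrial reads it was 11.7% in Sspo-high cells against 5.48% in Ccdc153-high cells, and 11.2% against 5.78% in the Nkx2-2 line. In CPM the Nkx2-2 line had 3662 against 3224 (0.18), within 1.5-fold. The share of Mt.nd1 was 5.26% in the third ventricle, 6.12% in the spinal cord and 7.25% in lateral ventricle cells. Mt.tq was the other higher row at 123 CPM against 53.4 (1.21). In the Nkx2-2 line it was at 91.9 against 65.7 (0.48), also within 1.5-fold. Mt.nd1 lies at bases 2751 to 3707 of the mitochondrial genome (GRCm38, plus strand), and Mt.tq at 3772 to 3842 on the minus strand, with Mt.ti, the isoleucine transfer RNA, between them at 3706 to 3774. Mt.ti was at 7.83 CPM against 13.4 (-0.78), so the row between the pair was lower. Some rows share bases on the same strand: Mt.nd1 with Mt.ti, Mt.nd2 with Mt.tw, and Mt.ts2 with Mt.tl2. Others overlap on opposite strands, Mt.ti with Mt.tq and Mt.nd5 with Mt.nd6, and libraries without strand cannot tell these apart in the shared bases. With the authors' normalized values Mt.nd1 had a log2 ratio of 0.48, within 1.5-fold. On the CPM scale its call held in 10 of 14 fits that each left out 1 block.

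Genes that feed or surround the chain were read from lists, against the same background of 31.1% higher and 22.2% lower. In Sspo-high cells, of 18 tricarboxylic acid cycle and pyruvate dehydrogenase genes 1 was higher and 2 lower: Suclg2 of succinate-CoA ligase at 95 CPM against 36.9, and the isocitrate dehydrogenases Idh3a at 143 against 479 and Idh2 at 220 against 618. Of 17 electron carrier and feeder genes 3 were higher and 3 lower, among them Etfa, which passes electrons from fatty acid oxidation, at 105 against 444. Of 12 carriers and energy transfer genes 3 were higher and 4 lower. Higher were the brain creatine kinase Ckb at 7198 CPM against 2928, the uncoupling protein Ucp2 at 1294 against 510 and the ADP/ATP carrier Slc25a4 at 1162 against 680, while its paralog Slc25a5 was at 59.3 against 200. Of 6 regulators 0 were higher and 3 lower, among them Ppargc1a, a coactivator of mitochondrial biogenesis, at 18.5 against 41.0. Of 76 mitochondrial ribosome genes 9 were higher and 4 lower. Apart from the lower carriers and regulators, these counts lie under the background. On the authors' normalized scale the regulators again had 0 higher and 3 lower and the carriers 2 higher and 4 lower, while the mitochondrial ribosome had 4 higher and 7 lower, so the split of that list turned.

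**Figure D5:**
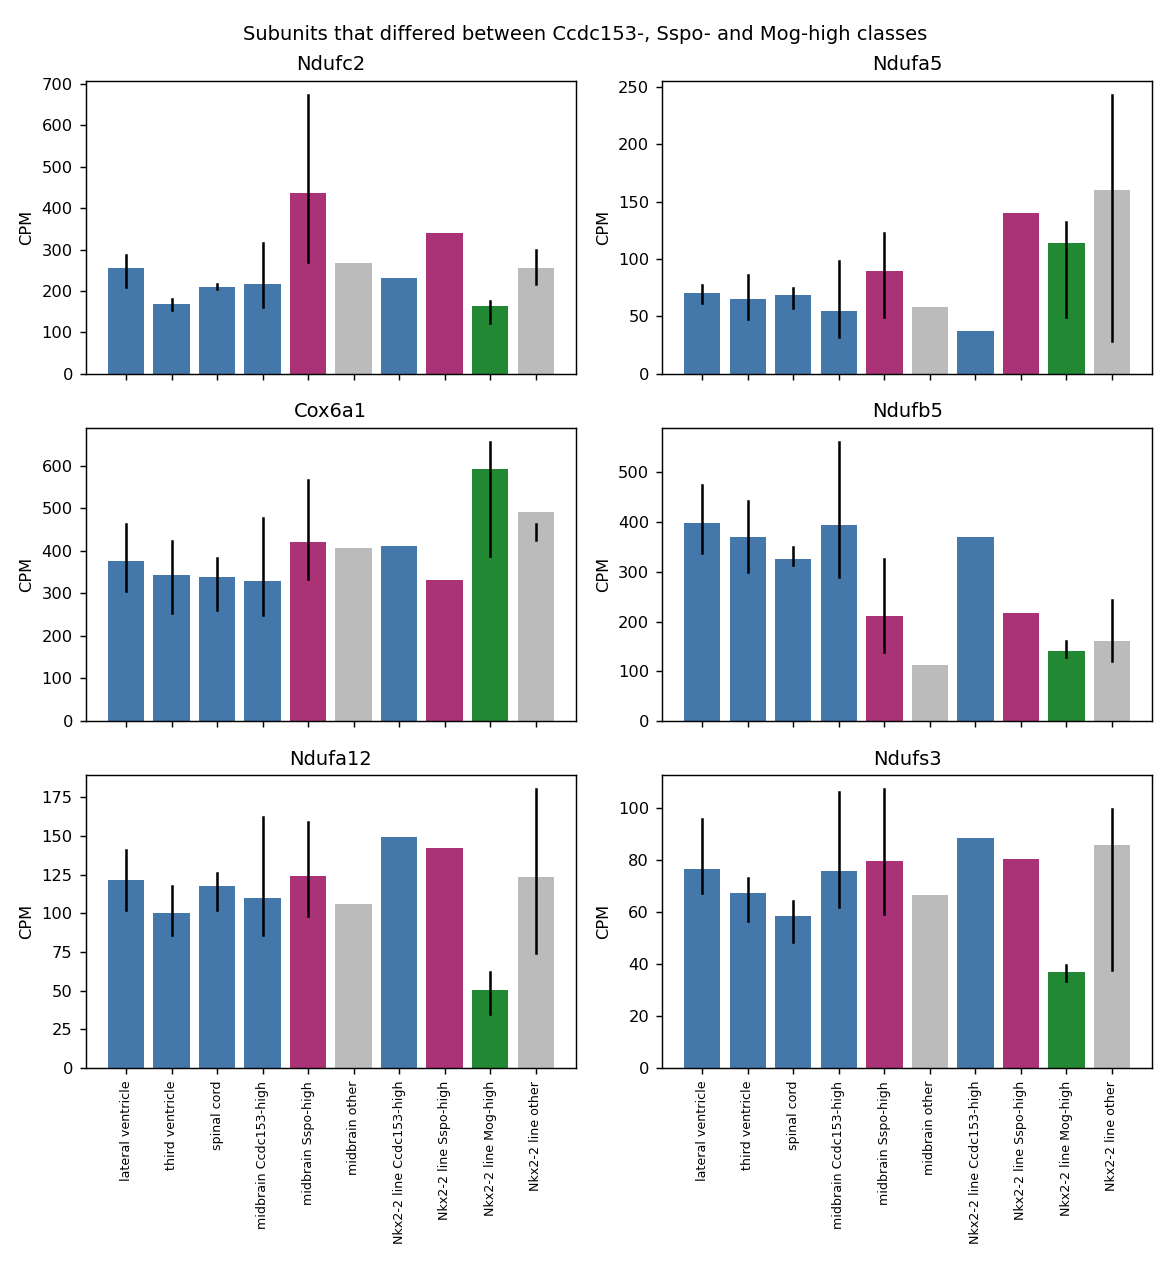
Level (CPM) of 6 nuclear subunits in each class of cells (bars), with lines for the range over blocks of at least 10 cells. Ndufc2 is highest in Sspo-high midbrain cells at 437, Ndufa5 and Cox6a1 are higher in Mog-high cells than in Ccdc153-high midbrain cells, and Ndufb5, Ndufa12 and Ndufs3 lower.

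The Mog-high cells of the Nkx2-2 line were compared with the Ccdc153-high midbrain cells of the Foxj1 line. Mouse line, sex of the animals and, for most cells, sequencing project differ between these groups together with the cell class and cannot be told apart. Of 77 subunits 4 were at least 1.5-fold higher and 12 lower, beside a background of 23.8% higher and 48.3% lower. The median log2 ratio was -0.16 (all genes -0.52). With the authors' normalized values it was 0.32 (all genes 0.11), with 24 higher and 4 lower of 77 beside a background of 37.2% and 34.7%. The direction of the median and of the split thus turned with the scaling. By complex the medians were -0.09 for I, -0.30 for II, 0.09 for III, -0.34 for IV and -0.26 for V, and no complex II or III subunit passed 1.5-fold.

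Among the subunits higher in Mog-high cells, Ndufa5 was at 114 CPM against 54.4 (log2 1.07), Ndufa3, another complex I subunit, at 342 against 227 (0.59), and Cox6a1, the widely expressed form of subunit 6a, at 592 against 330 (0.85). On the authors' normalized scale these ratios were 1.35, 1.0 and 1.33 in that order. Against the 19 Ccdc153-high cells of the same line they were 1.61 for Ndufa5, 0.02 for Ndufa3 and 0.53 for Cox6a1, so of these 3 only Ndufa5 passed 1.5-fold there.

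The lowest ratios were again those of paired forms. Cox6b2 was at 2.56 CPM (blocks 0.425 to 4.73) against 40.5 (log2 -3.98), in 7.00% of cells against 30.0%, and Cox7a1 at 1.20 against 12.7 (-3.40). Among single-form subunits, Ndufb5 was at 140 CPM against 394 (-1.49), Ndufa12 at 50.2 against 110 (-1.13), and Ndufs3, a core subunit of the complex I peripheral arm, at 37.1 against 75.8 (-1.03). Against the 19 cells of the same line the ratios were -2.50 for Cox6b2, -5.06 for Cox7a1, -1.40 for Ndufb5, -1.57 for Ndufa12 and -1.26 for Ndufs3. In the authors' normalized values Cox6b2 had -3.38, Cox7a1 -3.02, Ndufb5 -0.88 and Ndufa12 -0.62, while Ndufs3 at -0.40 was within 1.5-fold.

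Against that reference of the same line 1 of 78 subunits was higher and 24 lower (background 30.8% and 47.5%, median -0.34, all genes -0.46). Against the Ccdc153-high midbrain cells of the second sequencing project, which is that of the Nkx2-2 line, 5 were higher and 20 of 77 lower (background 27% and 47.2%, median -0.28). The Ccdc153-high cells themselves differed between lines, with 15 subunits higher and 1 of 78 lower in the Nkx2-2 line (background 22.3% and 31.4%, median 0.30, all genes -0.09), on 19 cells. In the main comparison the remaining lower subunits were Atp5g3 (-0.88), Ndufab1 (-0.84), Cox7b (-0.81), Cox8a (-0.75), Atp5j (-0.71), Atp5a1 (-0.66) and Ndufb3 (-0.61). All 7 were within 1.5-fold in the normalized values, and leaving out 1 block ended the calls of Atp5j, Ndufb3 and the higher Ndufa3.

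Of 11 assembly factors compared 6 were lower and 1 higher in Mog-high cells, with a median log2 ratio of -0.70. With 48.3% of all genes lower and an all-gene median of -0.52, this is near the background, and in the authors' normalized values 5 of 12 were lower and 3 higher. Ndufaf6 was at 2.16 CPM against 13.7 (log2 -2.67), Sdhaf4 at 25.6 against 115 (-2.17), Ndufaf8 at 37.6 against 127 (-1.76) and Ndufaf3 at 62.6 against 163 (-1.38). Ndufaf7 (-1.44) and Ndufaf1 (-0.70) were the other lower ones, and without 1 block of Mog-high cells Ndufaf1 stood at -0.47, within 1.5-fold. Ndufaf2 was higher at 68.4 against 33.4 (1.04). Against the 19 Ccdc153-high cells of the same line Ndufaf1 turned, at 23.2 against 9.64 CPM (1.27), past 1.5-fold higher. The other factors named here kept their direction past 1.5-fold against that reference.

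Mitochondrial rows took 4.37% of reads in Mog-high cells (blocks 3.88 to 4.70), with 12 of 22 rows lower and 2 higher (median log2 -0.73), near the background of 48.3% lower. On the normalized scale 9 of 21 were lower and 6 higher. Among the protein-coding rows Mt.nd1 was higher at 4941 CPM against 2984 (0.73), with blocks of 4689 to 5083 against 2088 to 4677, and Mt.nd5 was lower, though at -0.07 in the normalized values it was within 1.5-fold. Mt.nd1 made up 11.3% of mitochondrial reads, close to its share in Sspo-high cells, and Mt.tq was higher at 102 CPM against 53.4 (0.94). Ribosomal RNA made up 36.1% of mitochondrial reads in Mog-high cells against 50.7% in Ccdc153-high midbrain cells, and 41.9% in the Ccdc153-high cells of the same line. The ratio of mitochondrial to nuclear subunit reads was 2.81, and 1.78 for protein-coding rows alone.

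The same lists were read in Mog-high cells, against a background of 48.3% lower and 23.8% higher. Of 18 tricarboxylic acid cycle and pyruvate dehydrogenase genes 10 were lower and 1 higher, with Idh2 at 46.5 CPM against 618, Idh3a at 118 against 479 and Suclg2 at 0.490 against 36.9. Of 17 carrier and feeder genes 7 were lower and 3 higher, with Etfa at 27.1 against 444 and Gpd2, the mitochondrial glycerol-phosphate dehydrogenase, at 72.4 against 12.5. Of 6 regulators 5 were lower and 1 higher: Ppargc1a was at 0.0340 CPM against 41.0 and the deacetylase Sirt3 at 43.6 against 174, while Hif1a of the oxygen response was at 89.8 against 56.0. Of 13 carriers and energy transfer genes 7 were lower and 3 higher, with Ucp2 at 1.39 CPM against 510. Of 18 genes of mitochondrial genome expression 7 were lower and 2 higher, with Tfam, which packages mitochondrial DNA, at 23.2 against 59.0. Of 76 mitochondrial ribosome genes 25 were lower and 6 higher. In the authors' normalized values, with a background of 34.7% lower and 37.2% higher, the tricarboxylic acid cycle list had 4 lower and 2 higher, the feeders 4 and 3, the regulators 3 and 2 of 7, the carriers 2 and 5, mitochondrial genome expression 3 and 4, and the mitochondrial ribosome 11 and 19. The split of the last 3 lists thus turned with the scaling.

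The same lists were read in the regions, with the backgrounds given above for each. Of 18 tricarboxylic acid cycle genes 0 passed in the lateral ventricle and the midbrain, 1 was lower in the third ventricle, and 2 were higher and 2 lower in the spinal cord. Of 76 mitochondrial ribosome genes at most 1 was higher and 1 lower in each of these 3, and 3 were higher and 2 lower in the spinal cord. In the spinal cord, where 17.7% of all genes were higher and 18.5% lower, 4 of 8 regulators were higher and 0 lower, among them Gabpa, the DNA-binding part of GABP, at 36.3 CPM against 19.7 and Hif1a at 100 against 49.7. Ucp2 was at 883 against 484 there. Blocks of these 3 genes in the spinal cord lay above those of the other regions.

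The assumed split of the midbrain sample into 2 sequencing projects gave a spread within a class, in which the project and the animals of the pool cannot be told apart. In Ccdc153-high cells 2 of 76 subunits were higher and 0 lower in the second project (background 9.71% and 20.6%), with a median log2 ratio of 0.19 (all genes -0.07). In Sspo-high cells 1 of 77 was higher and 0 lower (background 11.9% and 18.9%), with a median of 0.13 (all genes -0.02). Both medians exceed in size those of 3 regions, and that of the lateral ventricle lies between them.

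The 7 copy rows stood at steady fractions of their parent genes, with 1 exception. Uqcrh.ps1 stood at 4.69 to 5.65% of its parent over the 10 classes, Uqcrh.ps2 at 4.46 to 5.30%, Atp5k.ps2 at 5.54 to 6.99%, Ndufa11b at 4.79 to 5.77%, Cox6c2 at 13.8 to 15.7% and Ndufs6b at 21.9 to 24.2%, while Ndufab1.Ps ranged from 13.7 to 30.0%. How the alignment divided reads between parent and copy was not tested.

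From cell to cell, the mitochondrial share and the nuclear subunit share of nuclear reads were loosely related. Pearson's r was 0.37 over 317 Ccdc153-high midbrain cells (Spearman 0.44), 0.42 over 196 Sspo-high cells (0.42), 0.31 over 240 lateral ventricle cells (0.28) and 0.20 over 243 Mog-high cells (0.15). It was 0.12 over 245 cells of the third ventricle (0.03) and -0.08 over 114 spinal cord cells (0.17). Cells of a class share a sample and a pool of animals, and each cell's shares come from 1 library of its own depth, so these are descriptions and carry no test.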

How the data were processed

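Smart-seq2 libraries of 1473 cells in 5 samples were analysed. The authors deposited raw counts per gene and cell, and a second table of log2 values that equal log2(count / size factor + 1) to within 0.01. The submitters' processing notes name STAR 2.3.1o, Seurat 3 and mm10; the annotation used for counting is not given in the sources used here. Column prefixes were matched to samples by anatomy (Forebrain to the lateral ventricles, Tanycytes to the third ventricle).

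Counts were summed by class and divided by the class total. A gene was compared where either side reached 10 CPM, and called at 1.5-fold. Named genes were the 4 subunits with the highest and lowest ratio in each comparison, the extremes per kilobase in each complex, the paired forms, called assembly factors, mitochondrial rows, and up to 4 called genes of each other list; core subunits and the remaining called subunits were added after their values were seen. Counting intervals were exact 95% and cover counting error only, since reads carry no molecular identifiers; with at least 14323509 reads per class for abundant genes they were far narrower than the range over blocks of 96 consecutive well numbers, which served as the spread. The floor for an undetected gene was 3 reads. Lengths were annotated exon lengths per gene from GENCODE M21. Calculations used Python 3.11.15, pandas 2.3.3 and scipy 1.17.1 and were tested on simulated counts. Members and gene lists were chosen with earlier results of these data known. Cells were assigned to the 2 sequencing projects named in the titles by taking cell numbers as well order. Alternatives tried were the normalized values, the mean over cells, other minima, folds and class limits, and leaving out blocks. Values of 1 subunit that met the naming rule are not reported here.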

Additional observations from a re-analysis of the deposited data

How the results depend on the processing

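Counts of subunits past 1.5-fold are small in each region, so they moved with the settings; of 526 alternative values for the main results, 482 stayed close and 44 moved, and of 951 for single genes 904 stayed and 47 moved. The single genes were a named set without the assembly factors and most mitochondrial rows. Among these values none past 1.5-fold changed sign. Outside that set Mt.rnr1 in the spinal cord moved from 0.84 to -0.13 without the second spinal cord block. Ndufaf1 in Mog-high cells moved from -0.70 to 1.27 against the Ccdc153-high cells of the Nkx2-2 line. Medians of the subunits, all within 1.5-fold, crossed 0 in 9 of 151 cases, 5 of them in the spinal cord. With a 50 CPM minimum the count was 0 higher in the lateral ventricle, 1 lower in the midbrain and 0 lower in the spinal cord. With no minimum it was 2 higher and 1 lower in the lateral ventricle, 1 higher in the third ventricle, 1 higher and 4 lower in the midbrain, and 3 higher in the spinal cord. With the mean over cells it was 1 higher in the third ventricle, 1 lower in the midbrain and 3 higher in Sspo-high cells. At 2-fold it was 0 lower in the midbrain, 1 lower in the spinal cord, 2 higher and 1 lower in Sspo-high cells, and 1 higher and 5 lower in Mog-high cells. Doubled class limits gave 0 lower in the midbrain, and halved ones 3 higher in Sspo-high cells. The authors' normalized values gave 1 lower in the midbrain, a median of -0.16 with 2 higher in Sspo-high cells, and a median of 0.32 with 24 higher and 4 lower in Mog-high cells. The second sequencing project alone gave 20 lower in Mog-high cells. The Ccdc153-high cells of the Nkx2-2 line as reference, an alternative chosen after seeing the data like those without cells over 20% mitochondrial reads or with Ccdc153-high cells in every region, gave 1 higher and 24 lower. The cause was not tested.

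Leaving out 1 block of cells at a time gave medians of 0.00 to 0.25 in the lateral ventricle (1 to 2 higher, 0 to 1 lower), -0.24 to 0.01 in the third ventricle (0 to 1 higher, 0 to 1 lower), -0.14 to -0.02 in the midbrain (0 higher, 1 to 2 lower), -0.064 to 0.070 in the spinal cord (0 to 2 higher, 2 to 8 lower), 0.01 to 0.14 in Sspo-high cells (4 to 8 higher, 3 to 5 lower) and -0.21 to -0.08 in Mog-high cells (3 to 5 higher, 10 to 15 lower). The mitochondrial share was 5.35 to 5.65% in the lateral ventricle, 4.89 to 5.30% in the third ventricle, 7.25 to 12.5% in the spinal cord, 5.22 to 5.69% in Ccdc153-high midbrain cells, 3.83 to 4.11% in Sspo-high cells and 4.24 to 4.51% in Mog-high cells. No paired analysis was possible because each group held 1 sample.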
